A study of Mus musculus with 4 samples.

Results

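Cell cycle and DNA replication genes were followed in dorsal skin of mice injected with mini-circle DNA. The list held 42 genes chosen by name: 25 mitotic members, which act when chromosomes are segregated, and 17 S-phase members, which act when DNA is copied. Their probes were read on 4 Illumina bead arrays, among 45281 probes in all. Of the 42 members, 40 had a probe named in the platform annotation (84 probes). For Mki67 and Ccnb1 no probe carried the symbol there, and they were not analysed here. At least 1 probe was above the detection limit on at least 1 array for 33 members, among 12729 such genes in all.

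Mice were of strain C57BL/6J and 8 to 12 weeks old, and the 4 groups were skin of animals that had received IL-17A DNA with IMQ, GFP DNA with IMQ, IL-17A DNA without IMQ, or GFP DNA without IMQ. A mini-circle is a small circular expression vector, IL-17A is an inflammatory cytokine, and GFP served as the control cargo. IMQ usually stands for imiquimod, which activates a Toll-like receptor and inflames mouse skin; the labels give the abbreviation with no dose, schedule or interval, and do not state that the skin itself expressed the DNA. Each array was 1 pool of 6 mice, so no group had a replicate and no test, p-value or standard error can be given. The words higher and lower below describe these 4 pools. Whole skin was measured, so fewer cells of a type and less RNA per cell cannot be told apart. Keratinocyte markers were present as the tissue label requires: all 10 basal and all 9 suprabasal keratinocyte genes with a named probe were above the limit on at least 1 array.

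Dividing cells copy their DNA in S phase and part the copies in mitosis. Before S phase the MCM helicase is loaded on origins, and nucleotide-making enzymes and the clamp PCNA then serve the replication fork. In mitosis CDK1, the Aurora and Polo kinases and kinesin motors build the spindle, after which CDC20 turns on the anaphase-promoting complex, a ubiquitin ligase that lets sister chromatids separate. In skin such cells lie chiefly in the basal layer of the epidermis and in the matrix of growing hair follicles. Genes of S phase are commonly controlled through E2F sites, and mitotic genes through the cell cycle homology region (CHR) together with CCAAT boxes.

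The promoters of the listed genes differed between the classes in these motifs. RefSeq promoter windows of build GRCm38.p6, running from 250 bases before to 50 bases after each gene's start, were found for 21 mitotic and 14 S-phase members. A CHR-type match (TTTGAA or TTCGAA on either strand) stood in 15 of 21 mitotic windows (71.4%) and 2 of 16 S-phase windows (12.5%), against 19.2% of all 32851 windows. An E2F-type match (TTTCGCGC, TTTGGCGC, TTTCCCGC or TTTGGCGG on either strand) stood in 1 of 21 mitotic windows (4.76%) and 7 of 16 S-phase windows (43.8%), against 2.37% of all windows. CCAAT on either strand was found in 85.7% of mitotic, 68.8% of S-phase and 37.4% of all windows. CHR-type and CCAAT matches stood together in 15 of 21 mitotic and 2 of 16 S-phase windows, against 7.52% of all. TTCGAA reads the same on both strands, and the E2F-type words can overlap one another on opposite strands. A match is a description of letters and not a shown binding site.

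**Figure D1:**
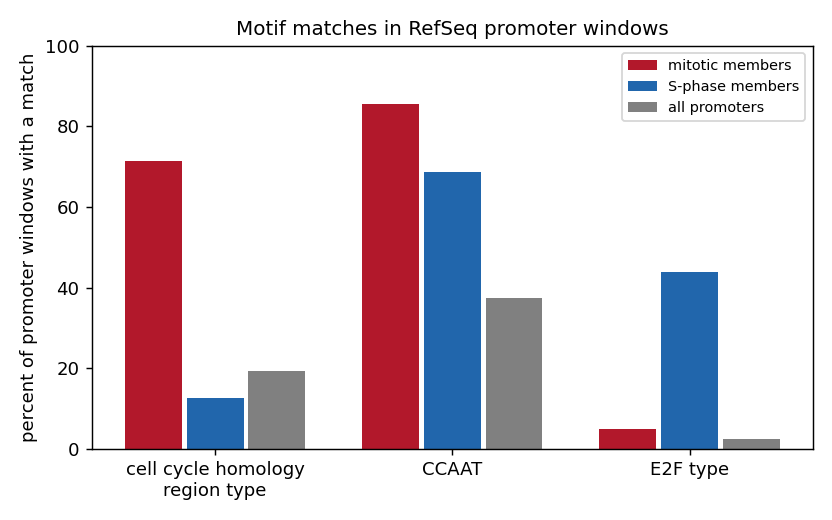
The bars give the percentage of 300-base RefSeq promoter windows that hold each motif, for mitotic members (21 windows), S-phase members (16 windows) and all promoters (32851 windows). CHR-type matches stand in 71.4% of mitotic windows and E2F-type matches in 43.8% of S-phase windows.

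The 160 bases before the start are printed for members on which the comparisons below turn (Cdc20, Aurka, Plk1, Kif11, Cdk1) and for 2 helicase subunits as S-phase examples (Mcm6, Mcm5). They are given 5′ to 3′ on the gene's strand, with CHR-type, CCAAT and E2F-type matches of either strand in capitals (TTCAAA and ATTGG are such matches on the other strand). The stretches are, in GRCm38.p6, Cdc20 at chr4:118437344-118437503 (minus strand), Aurka at chr2:172370571-172370730 (minus strand), Plk1 at chr7:122159275-122159434 (plus strand), Kif11 at chr19:37376222-37376381 (plus strand), Cdk1 at chr10:69352913-69353072 (minus strand), Mcm6 at chr1:128359706-128359865 (minus strand) and Mcm5 at chr8:75109349-75109508 (plus strand).
Cdc20: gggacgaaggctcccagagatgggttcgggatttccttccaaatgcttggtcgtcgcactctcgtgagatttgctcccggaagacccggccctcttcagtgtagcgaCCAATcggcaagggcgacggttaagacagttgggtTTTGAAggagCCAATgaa
Aurka: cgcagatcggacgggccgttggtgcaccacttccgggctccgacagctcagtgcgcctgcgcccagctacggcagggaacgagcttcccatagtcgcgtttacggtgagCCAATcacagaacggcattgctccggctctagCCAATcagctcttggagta
Plk1: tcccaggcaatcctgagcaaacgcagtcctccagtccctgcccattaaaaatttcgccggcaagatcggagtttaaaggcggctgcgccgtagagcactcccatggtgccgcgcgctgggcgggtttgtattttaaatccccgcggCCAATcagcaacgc
Kif11: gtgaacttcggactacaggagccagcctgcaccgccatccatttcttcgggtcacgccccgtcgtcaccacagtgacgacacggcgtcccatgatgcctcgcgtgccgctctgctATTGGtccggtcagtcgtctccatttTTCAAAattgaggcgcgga
Cdk1: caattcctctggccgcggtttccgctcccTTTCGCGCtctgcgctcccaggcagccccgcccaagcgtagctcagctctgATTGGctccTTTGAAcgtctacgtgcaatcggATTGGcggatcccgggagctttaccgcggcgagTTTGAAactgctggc
Mcm6: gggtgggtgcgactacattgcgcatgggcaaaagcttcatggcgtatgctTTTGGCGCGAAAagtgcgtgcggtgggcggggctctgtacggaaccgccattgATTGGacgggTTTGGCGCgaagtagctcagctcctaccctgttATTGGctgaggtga
Mcm5: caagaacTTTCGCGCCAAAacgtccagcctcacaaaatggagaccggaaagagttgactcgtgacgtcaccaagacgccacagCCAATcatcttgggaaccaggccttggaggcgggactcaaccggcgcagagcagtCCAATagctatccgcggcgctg
Cdc20 and Kif11 carry a CHR-type match close before the start, and Cdk1 carries 2 as well as the single E2F-type match of the mitotic windows. In Aurka and Plk1 the CHR-type match begins at base 33 and base 31 after the start, outside the printed stretch. The capitals of Mcm6 and Mcm5 hold CCAAT and overlapping E2F-type words, and no CHR-type word was found in these windows. Both are among the 7 of 16 S-phase windows with an E2F-type match and do not stand for the whole class. Rrm1 and Rrm2 had CCAAT matches alone, and Mcm2 a CHR-type and a CCAAT match.

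No member was 2-fold apart in any comparison on the normalized scale, on which 50 units are added to each intensity and differences of dim probes shrink. At this threshold 0 of 33 members were called between IL-17A and GFP skin that had both received IMQ, where 1.34% of all genes were, and 0 of 33 without IMQ, where 1.83% were. For IMQ against none, 0 of 33 were called in IL-17A skin (0.244% of all genes) and 0 of 33 in GFP skin (0.699% of all genes). At 1.5-fold Cdc20 alone was called, higher in IL-17A skin under IMQ (2.52% of all genes) and without IMQ (2.13%). Deposited intensities below are in arbitrary units after the authors' background subtraction, and log2 differences are taken after quantile normalization.

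The mitotic members were on the whole higher in IL-17A skin, more so under IMQ. Over the 13 above the limit on all 4 arrays the median log2 difference was 0.34 under IMQ, with 12 of 13 above 0, against a median of 0.00 and 50.7% above 0 for all genes. Without IMQ the median was 0.19, with 11 of 13 above 0, against 0.01 and 52.6% for all genes. Here and below, shares of all genes above or below 0 are over the 12729 above the limit on at least 1 array. Such shares were not computed for genes above the limit on all 4 arrays. A further 3 (Ttk, Ube2c and Pttg1) passed on fewer arrays, Ube2c solely where it was high; with them the medians over 16 were 0.33 and 0.19. Another 7 mitotic members (Ccnb2, Ccna2, Bub1, Kif20a, Cenpe, Cks2 and Cks1b) were not above the limit on any. With those dim genes included, the mitotic medians were 0.18 under IMQ and 0.04 without.

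The S-phase members, all 17 above the limit on all 4 arrays, were higher in IL-17A skin chiefly without IMQ. Their median log2 difference was 0.09 under IMQ, with 9 of 17 above 0, near the 50.7% of all genes. Without IMQ it was 0.17, with 14 of 17 above 0, against 52.6% of all genes. Averaging all probes of a gene in place of taking the brightest gave -0.0029 under IMQ. The 2 classes of listed members thus lay close together without IMQ and apart under IMQ. There the mitotic median exceeded the S-phase median by 0.09 to 0.28 over 9 processing settings. Without IMQ that gap ran from -0.13 to 0.04. Further genes of the 2 classes, given below, lay apart in both comparisons, so the pattern holds for the listed members alone.

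**Figure D2:**
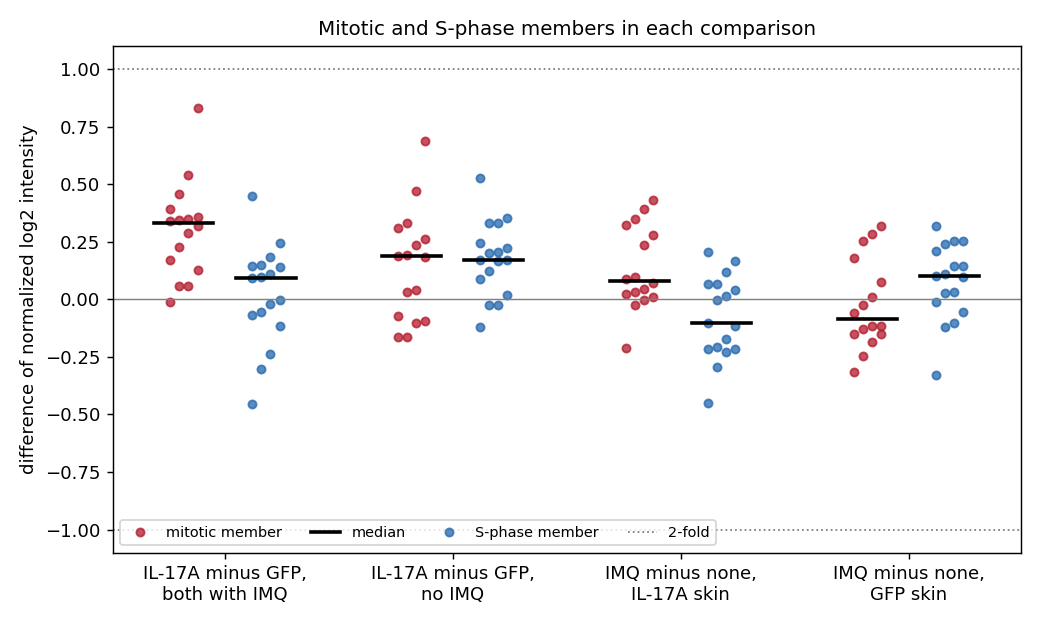
Each point is 1 member's difference of normalized log2 intensity between 2 arrays, and black bars are medians; dotted lines mark 2-fold. Mitotic members (16) have a median of 0.33 and S-phase members (17) of 0.09 under IMQ, and 0.19 and 0.17 without.

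Among the mitotic kinases, Aurka and Plk1 were higher in IL-17A skin in both comparisons. Aurka, which acts at the centrosomes and spindle poles, had deposited intensities of 127.2 in IL-17A skin with IMQ, 64.2 in GFP skin with IMQ, 130.9 in IL-17A skin and 76.0 in GFP skin. Both IL-17A pools lay above both GFP pools, by 1.45-fold under IMQ and 1.39-fold without (log2 0.54 and 0.47). Plk1, the Polo-like kinase of mitotic entry and exit, had 352.9, 222.1, 264.5 and 196.5 in the same order of pools, and its log2 differences were 0.46 under IMQ and 0.31 without. It was the highest on the array that had received both agents. Cdk1, the kinase that drives entry into mitosis, read 271.5 and 257.1 in IL-17A and GFP skin with IMQ, and 302.6 and 221.6 in IL-17A and GFP skin without. Its log2 difference was 0.33 without IMQ and -0.01 under IMQ, where the deposited and the normalized values order the pools differently. Aurkb, the kinase of the chromosomal passenger complex, had log2 differences of 0.06 under IMQ and -0.16 without.

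All 6 spindle and kinetochore members above the limit on all 4 arrays were higher in IL-17A skin under IMQ (50.7% of all genes). Their median was 0.34. Without IMQ 5 of 6 were higher (52.6% of all genes), with a median of 0.19. The brightest probe of Kif23, a kinesin of the central spindle that is needed for cytokinesis, read 836.1 in IL-17A skin with IMQ, 571.6 in GFP skin with IMQ, 697.8 in IL-17A skin and 712.7 in GFP skin. Its log2 difference was 0.39 under IMQ and -0.07 without. A second probe read 639.0, 528.8, 532.1 and 660.4 in the same order, highest in GFP skin, and another 160.8, 121.6, 182.3 and 167.5, highest in IL-17A skin without IMQ. All 3 were higher in IL-17A skin under IMQ (0.39, 0.13 and 0.22), and without IMQ they disagreed in sign (-0.07, -0.33 and 0.07). Kif11, the kinesin that pushes spindle poles apart, read 123.5, 78.6, 102.7 and 82.3 in the same order, with log2 differences of 0.35 under IMQ and 0.19 without. Cenpa, the centromeric histone H3 variant, read 1954, 1436, 1993 and 1642 in that order, with log2 differences of 0.35 and 0.26. Its dim second probe had the opposite sign under IMQ (log2 -0.25), so the direction for Cenpa under IMQ depends on the probe. The other 3 of these 6 were Nusap1, Bub1b and Tpx2, which serve spindle assembly or the spindle checkpoint. They had log2 differences under IMQ of 0.34, 0.29 and 0.13. Ttk, a gene of the spindle checkpoint, is not among the 6. It was above the limit on 1 array alone, that of GFP skin without IMQ.

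Cdc20, the activator of the anaphase-promoting complex, had the largest difference among the members in both IL-17A comparisons as normalized here. Without normexp, at a floor of 16 that shrinks dim probes less, Aurka stood slightly above it (0.903 against 0.901 under IMQ and 0.79 against 0.76 without). The brightest Cdc20 probe read 1017 in IL-17A skin with IMQ, 504.4 in GFP skin with IMQ, 825.9 in IL-17A skin and 473.4 in GFP skin. Both IL-17A pools lay above both GFP pools, by 1.78-fold under IMQ and 1.61-fold without (log2 0.83 and 0.69). All 4 Cdc20 probes had the same sign: the other 3 gave log2 differences of 0.82, 0.75 and 0.30 under IMQ and 0.59, 0.50 and 0.16 without. Over the 9 processing settings the gene's difference ran from 0.68 to 0.90 under IMQ and from 0.49 to 0.76 without. Ube2c, a ubiquitin-conjugating enzyme of the same complex, read 17.2 in IL-17A skin with IMQ, 0.0167 in GFP skin with IMQ, 1.08 in IL-17A skin and 6.11 in GFP skin. It passed the limit on the first of these alone, so no fold is given. Pttg1, or securin, which the complex marks for destruction, read 12.8, 9.77, 12.9 and 19.8 in that order and stayed close to the limits of 11.6 to 12.7.

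**Figure D3:**
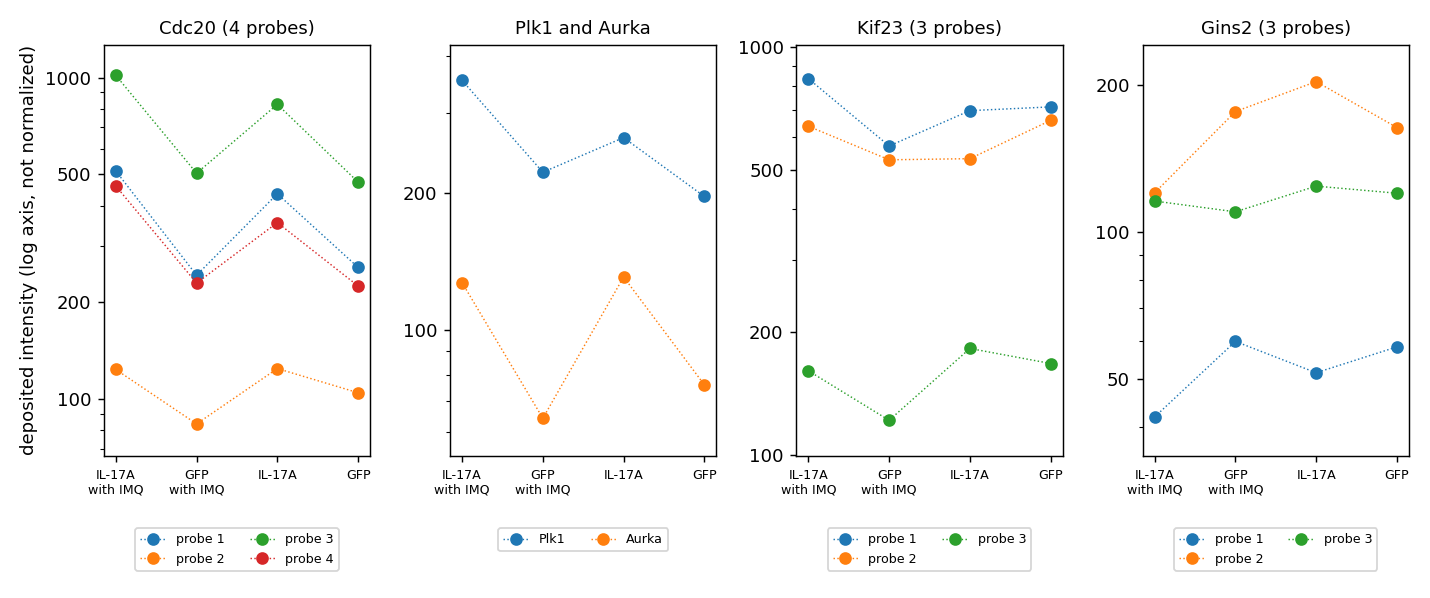
Deposited intensities (log axis, not normalized) of every probe above the limit on all arrays for Cdc20, Plk1, Aurka, Kif23 and Gins2, on 1 array per group. All 4 Cdc20 probes are higher on the IL-17A array than on the GFP array, with and without IMQ, while the 3 Gins2 probes do not run in parallel.

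The chromosome and proliferation markers showed smaller differences than Cdc20, Aurka and Plk1. Top2a, the topoisomerase that untangles sister chromatids, read 475.4 in IL-17A skin with IMQ, 339.7 in GFP skin with IMQ, 509.8 in IL-17A skin and 407.7 in GFP skin. Its log2 differences were 0.32 under IMQ and 0.23 without, while a dimmer probe above the limit on all arrays gave -0.12 and 0.06, so the direction under IMQ depends on the probe. Birc5, or survivin, of the chromosomal passenger complex, read 516.4, 396.4, 528.5 and 496.6 in the same order, with 0.23 under IMQ and 0.04 without. Its 3 probes were all above 0 in both comparisons.

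Of 9 replication licensing members, 5 were higher in IL-17A skin under IMQ (median 0.10), near the 50.7% of all genes. Without IMQ 8 were (median 0.20), against 52.6% of all genes. Mcm7, a subunit of the replicative helicase, read 216.6 in IL-17A skin with IMQ, 186.3 in GFP skin with IMQ, 261.0 in IL-17A skin and 155.8 in GFP skin. Its log2 difference was 0.53 without IMQ and 0.10 under IMQ, while a dimmer probe read 60.1 and 59.3 in IL-17A and GFP skin without IMQ. Mcm2, another helicase subunit, read 277.4, 228.9, 285.6 and 209.7 in the same order, with log2 differences of 0.14 under IMQ and 0.33 without. Gins2, of the GINS complex that joins the helicase to the fork, went the other way under IMQ. It read 120.5 in IL-17A skin with IMQ and 176.8 in GFP skin with IMQ, a log2 difference of -0.46, and 203.6 and 163.9 in IL-17A and GFP skin without IMQ, a log2 difference of 0.20. Its other 2 probes gave -0.27 and -0.01 under IMQ. Mcm4, another subunit, read 1634, 1282, 1566 and 1344 in IL-17A with IMQ, GFP with IMQ, IL-17A and GFP skin, with log2 differences of 0.25 and 0.22. Mcm6, a further subunit, read 496.3, 478.9, 512.6 and 505.2 in that order, with -0.06 and -0.03. In both comparisons its deposited and normalized values order the pools differently. Other Mcm6 probes above the limit on all arrays gave -0.15 and 0.11 under IMQ, and 0.13 and 0.17 without. Its direction thus depends on the probe. Mcm4 and Mcm6 each had a dim probe of opposite sign to a brighter one without IMQ (log2 -0.47 against 0.22 and -0.46 against 0.17). Each of these dim probes passed the limit on 1 array.

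All 4 nucleotide supply members were higher in IL-17A skin without IMQ (52.6% of all genes). Under IMQ 2 of 4 were, near the 50.7% of all genes. Rrm1, the large subunit of ribonucleotide reductase, read 710.4 in IL-17A skin with IMQ, 460.5 in GFP skin with IMQ, 654.7 in IL-17A skin and 482.3 in GFP skin. Both IL-17A pools lay above both GFP pools (log2 0.45 under IMQ and 0.35 without), and its second probe also read higher in both (1.19-fold and 1.15-fold). Rrm2, the small subunit, read 123.1, 95.1, 165.0 and 116.4 in that order, with log2 differences of 0.18 and 0.33. Tyms, thymidylate synthase, read 431.1, 506.8, 561.0 and 478.1 in that order, with log2 differences of -0.30 under IMQ and 0.17 without. Tk1, a thymidine kinase, had log2 differences of -0.24 under IMQ and 0.12 without, the same pair of directions as Tyms.

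The clamp, the methylation reader and the G1/S cyclins differed little. Pcna read 58.2 in IL-17A skin with IMQ, 64.5 in GFP skin with IMQ, 78.9 in IL-17A skin and 71.3 in GFP skin, with log2 differences of -0.11 under IMQ and 0.09 without. Uhrf1, which reads hemimethylated DNA at the fork, read 795.8, 669.2, 792.5 and 757.5 in the same order, with log2 differences of 0.11 and 0.02. Ccne2, a cyclin E, read 34.0, 33.6, 35.9 and 45.8, with -0.02 and -0.12. Under IMQ its deposited and normalized values order the pools differently. Ccne1, the other cyclin E, stood apart in the IMQ comparison: it read 20.8 in GFP skin with IMQ and 46.98 in GFP skin, a normalized log2 difference of -0.33 after the 50 units are added.

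The array on which a member was highest differed between the classes. Of the 13 mitotic members above the limit on all arrays, 9 were highest in IL-17A skin with IMQ (27.3% of such genes in all) and none in GFP skin with IMQ (23.0%). None was lowest in IL-17A skin with IMQ (27.8%) or without (17.1%). Their lowest array was GFP with IMQ for 7 members (23.3%) and GFP without IMQ for 6 (31.8%). Of the 17 S-phase members 5 each were highest on IL-17A with IMQ (27.3% of such genes), GFP with IMQ (23.0%) and IL-17A without IMQ (20.7%). On GFP without IMQ 2 were highest (29.0%). The lowest array of the 17 was IL-17A with IMQ for 6 (27.8%) and GFP with IMQ for 3 (23.3%). It was IL-17A without IMQ for 1 (17.1%) and GFP without IMQ for 7 (31.8%). Centred on each gene's mean, the 13 mitotic members averaged 0.20, -0.13, 0.07 and -0.14 (log2) in IL-17A with IMQ, GFP with IMQ, IL-17A and GFP skin, and the S-phase members 0.01, -0.01, 0.09 and -0.09.

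**Figure D4:**
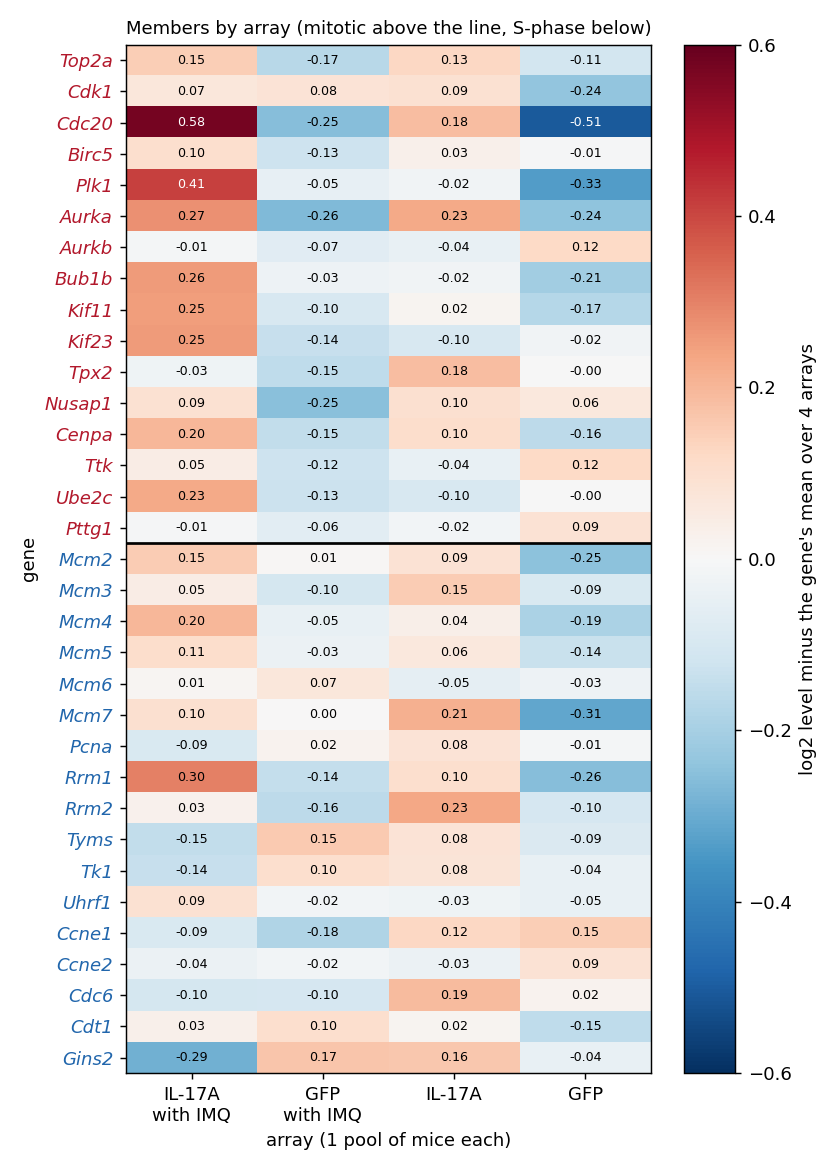
Colours and printed numbers give each member's normalized log2 level on each of the 4 arrays minus its mean over them, with 16 mitotic members above the line and 17 S-phase members below it; Ttk, Ube2c and Pttg1 were not above the limit on every array. Cdc20, Plk1 and Aurka are high on the IL-17A with IMQ array, while Gins2, Tyms and Tk1 are below their own mean there.

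A lower threshold of 1.25-fold, chosen after the values were seen, was read over genes above the limit on all 4 arrays. Under IMQ 7 of 13 mitotic members were higher in IL-17A skin by this measure (Cdc20, Aurka, Plk1, Kif23, Kif11, Cenpa and Nusap1), against 8.99% of such genes, and none was lower. Among S-phase members Rrm1 was higher and Gins2 lower, against 9.55% of such genes lower. Without IMQ 3 of 13 mitotic members (Cdc20, Aurka and Cdk1) and 4 of 17 S-phase members (Mcm7, Mcm2, Rrm1 and Rrm2) were higher and none was lower, against 9.55% of such genes higher and 10.4% lower. Cdc20, Aurka and Rrm1 passed in both comparisons. The share of all genes passing in both was not computed, and all 4 arrays were normalized together.

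Set against each other across genes, the comparisons without and under IMQ placed 10 of the 13 mitotic members above the limit on all arrays above 0 in both and 2 above 0 under IMQ alone. Of the S-phase members 8 of 17 were above 0 in both, 6 without IMQ alone and 1 under IMQ alone. The share of all genes above 0 in both comparisons was not computed, so these counts have no background. The difference of the 2 differences was above 0 for 11 of the 13 mitotic members (median 0.14) and below 0 for 12 of 17 S-phase members (median -0.15). Among all genes 48.9% were above 0 and 51.1% below. This contrast used each array once, and no replicate shows how far it would vary between pools.

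**Figure D5:**
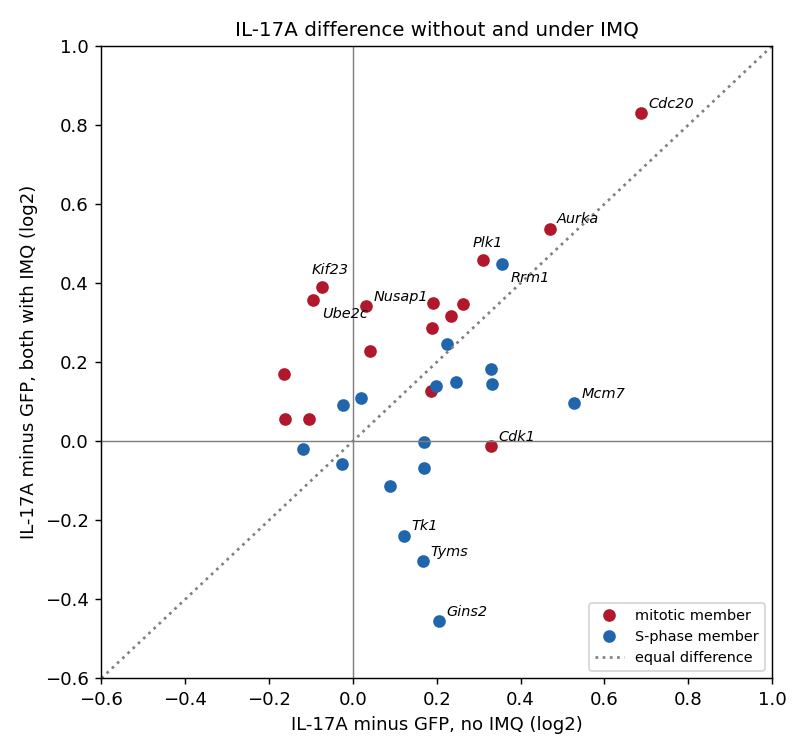
Each point is 1 member, with its IL-17A minus GFP difference (log2) without IMQ on the x axis and under IMQ on the y axis; the dotted line marks equal differences. Of the 13 mitotic members above the limit on all arrays 11 lie above the line, and 12 of 17 S-phase members lie below it; 3 dimmer mitotic members are drawn as well.

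The comparisons of IMQ with no IMQ reuse the same arrays. In IL-17A skin 10 of the 13 mitotic members above the limit on all arrays were above 0 under IMQ with a median of 0.07, and 7 of 17 S-phase members with a median of -0.10, against 49.0% of all genes. In GFP skin 6 of these 13 were above 0 with a median of -0.02, and 12 of 17 S-phase members with a median of 0.10, against 50.5% of all genes. At 1.25-fold, IMQ against none gave 3 members higher (Plk1, Cdc20 and Kif23) and 1 lower (Gins2) in IL-17A skin, against 3.94% of genes above the limit on all arrays higher and 3.65% lower. In GFP skin Ccne1 alone was lower, against 9.35% of such genes, and none was higher, against 7.73%.

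Probes of the same gene did not always give the same difference. Over 3609 genes with at least 2 probes above the limit on all arrays, the probes' log2 differences spanned a median of 0.20 under IMQ and 0.19 without IMQ for IL-17A minus GFP skin. The 13 members with several such probes spanned 0.26 and 0.18. All probes had one sign for 8 of these 13 members under IMQ (57.0% of all genes) and 9 of 13 without (59.8%). Probes of opposite sign were found for Top2a, Cenpa, Mcm6, Mcm7 and Tk1 under IMQ, and for Kif23, Mcm6, Tyms and Gins2 without. The span describes probes of single genes, not mice, and is no measure of error for the medians over the list.

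Other genes of the cell cycle were read from lists drawn up by function. Of 48 further mitotic genes, 32 were above the limit on all arrays. Their median was 0.18 under IMQ and 0.20 without. In each comparison 24 of 32 were above 0, against 50.7% of all genes under IMQ and 52.6% without. At 1.25-fold 9 of these 32 were higher and 1 lower under IMQ (8.99% and 9.55% of genes on all arrays), and 9 higher and 0 lower without (9.55% and 10.4%). The spindle gene Dlgap5 was at 0.53 and the passenger protein gene Cdca8 at 0.48 under IMQ, and the cohesin protector gene Sgo1 at 0.53 and the phosphatase gene Cdc25c at 0.47 without. In these 32 genes the difference of the differences was above 0 for 15 (48.9% of all genes), with a median of -0.03. The difference between these genes and the listed members was not tested. Of 55 further S-phase genes, 44 were above the limit on at least 1 array, with medians of -0.01 under IMQ and 0.05 without. Their difference of the differences was below 0 for 31 of 44 (51.1% of all genes). Over the 41 on all arrays the medians were -0.01 and 0.05. The further mitotic median thus lay above the further S-phase median without IMQ as well as under it, unlike in the listed members. The repair gene Rad51ap1 was at -0.61 and Dbf4 at 0.54 under IMQ. Without IMQ Ung, a uracil-DNA glycosylase gene, was at 0.79 and Cdca7 at 0.70, both above every listed member in that comparison.

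Regulators ahead of S phase and inhibitors were measured with them. Of 27 regulators of G1, 21 were above the limit, with medians of 0.13 under IMQ and 0.18 without. The D-type cyclin Ccnd2 and E2f7 were both at 0.39 under IMQ. Without IMQ Fbxw7 was at 0.59 and the D-type cyclin Ccnd1 at 0.54. Of 22 genes that restrain the cycle, 19 were above the limit, with medians of -0.09 and 0.12. Among them Cdkn3 was at 0.51 and Cdkn1c, a CDK inhibitor, at 0.39 under IMQ. Without IMQ Cdkn2c, an inhibitor of the G1 kinases, was at -0.57 and Rbl1 at 0.52. None of these lists held a gene 2-fold apart in an IL-17A comparison.

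Genes of other cell types were read on the same arrays, and several of these lists had larger median differences than the members. Hair matrix and root sheath genes (16 of 20 above the limit) had a median IL-17A minus GFP log2 difference of 1.52 under IMQ and 2.68 without. Of these 16 genes 12 were not above the limit in GFP skin without IMQ and 1 was not in GFP skin with IMQ, so those differences rest on undetected probes; set at their lower bounds, the medians were 1.52 and 2.64. Over the 4 hair genes above the limit on all arrays they were 0.40 and 0.66. The summed normalized intensity of the 16 was 30951 in IL-17A with IMQ, 10457 in GFP with IMQ, 18454 in IL-17A and 1861 in GFP skin, and the matrix regulators Msx2, Lef1 and Foxn1 and the sheath keratin Krt25 were not above the limit on any array. Genes of hyperplastic epidermis had medians of 2.17 under IMQ and 1.70 without (15 of 15 above the limit), with summed intensities of 180496, 60180, 120011 and 50395 in the same order of arrays. Macrophage genes, all 11 above the limit, were on the whole lower in IL-17A skin, with medians of -0.57 and -1.38. Under IMQ 1 of 11 was above 0 (50.7% of all genes), and without IMQ none was (52.6%). Their sums were 9649, 15098, 9908 and 26151 in the same order of arrays. Neutrophil genes (10 of 11) had sums of 34589, 2030, 14395 and 1981, and Ngp was not above the limit on any array. Camp, Ltf and Mpo passed on IL-17A arrays alone; over the 7 genes on all arrays the medians were 1.34 and 1.03, and with genes at their bounds 1.03 and 0.46. S100a8 and S100a9 are in this list and in that of hyperplastic epidermis. Without them the medians of the other 5 on all arrays were 1.03 and 0.43, and the sums over 8 genes 1229, 348.5, 870.2 and 459.4. Elane, a neutrophil granule protease gene, was at -0.06 and -0.13. Fibroblast genes, all 9 above the limit, had medians of 0.05 and -0.70 and sums of 23590, 22949, 20990 and 30220. Basal keratinocyte genes had medians of -0.06 and 0.33 and sums of 76719, 82097, 75334 and 70652, and suprabasal genes medians of -0.04 and 0.07. T and NK cell genes had medians of -0.37 and -0.08, and melanocyte genes 0.37 and 0.61. Endothelial genes (all 10 above the limit) had medians of 0.06 and -0.01, and B cell and erythroid genes (all 4 with a named probe) -0.05 and -0.05. The summed normalized intensity of the mitotic members was 7144, 5367, 6288 and 5371, and that of the S-phase members 7228, 6798, 7130 and 6179, in the same order. The part of these cell types in the members' differences was not tested.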

How the data were processed

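The deposited unnormalized table held 1 linear intensity per probe and array; 32.3% to 33.7% of values per array were below 0, so a background had been subtracted by the authors (its program is not given in the sources used here). Another table held the authors' normalized log2 values, whose method is not stated either, and served as an alternative. Median intensities were 7.96 in IL-17A with IMQ, 7.85 in GFP with IMQ, 8.31 in IL-17A and 8.80 in GFP skin; the number of arrays limits the precision. Intensities were corrected with limma 3.58.1 (R 4.3.3; normexp, offset 50, which shrinks differences of dim genes), quantile normalized and put on a log2 scale; Python 3.11.15 with pandas 2.3.3 did the rest. Values below 0, mirrored, described each array's noise, and the limit (11.6 to 12.7) was passed by a share of 0.01 of it. Each gene was read from its brightest probe above the limit on at least 1 array. A call needed 2-fold with the brighter array above its limit. No statistical test was made with 1 array per group. The procedure was run on simulated data, with changes larger than the class medians seeded in genes well above the limits. That run does not show how well small differences or dim genes are measured. The labels tie the arrays to no batch that can be told apart from the groups.

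The members and lists were chosen with earlier results of these data known. Values on each array were given for members 2-fold apart in any comparison, for the 2 with the largest IL-17A difference in each role group without and with IMQ, and for those whose probes disagree; Aurkb, Nusap1, Bub1b, Tpx2, Tk1 and Ccne1 were added after their values were seen. Each other cell cycle list gave its 2 largest differences in each IL-17A comparison. Alternatives were the authors' values, scaling to the 75th percentile, an offset of 16, no normexp with a floor of 16, other limits, no filter, the mean of the probes, and thresholds of 1.5-fold and, added later, 1.25-fold.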

Additional observations from a re-analysis of the deposited data

How the results depend on the processing

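Of 116 alternative values, 105 stayed within the tolerance (0.1 on the log2 scale for a median, 1.5-fold for a count), 10 moved and 1 reversed. Part of the 105 could not move. All S-phase members were above the limit on all arrays, so other limits and no filter left their medians unchanged. Most counts at 2-fold were 0 in both settings, where a fold tolerance has no meaning. The tally is therefore no measure of how stable the results are. The tolerance is as large as several medians. Scaling to the 75th percentile gave 0.02 for S-phase members under IMQ (0.09 as reported). For IMQ in GFP skin it gave -0.02 over 16 mitotic members, against -0.09 over these 16 with the main processing. The -0.02 given above for this comparison was over the 13 on all arrays. Averaging the probes of a gene gave an S-phase median of -0.0029 for IL-17A minus GFP skin under IMQ (0.09 as reported) and a mitotic median of 0.22 (0.33 as reported). With no filter on dim probes the mitotic medians were 0.18 under IMQ and 0.041 without (0.19 as reported). At 1.5-fold 1 member was called under IMQ and 1 without; at 1.25-fold, an added threshold, 10 of 33 under IMQ (18.0% of all genes) and 7 without (18.8%), and for IMQ against none 4 in IL-17A skin (8.07%) and 1 in GFP skin (16.2%). Without normexp, at a floor of 16, 1 member (Ccne1) was 2-fold apart for IMQ against none in GFP skin. Dim probes, with signals near the limits, bound what could be measured: 7 mitotic members were not above the limit on any array. The causes were not tested. No paired analysis was possible because each group has 1 array.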

Other observations

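Other genes followed the members' mean level closely over the 4 arrays. Among 10336 non-member genes above the limit on all arrays, the 10 with the largest Pearson correlation with the mean centred level of the members were Ppa1 (an inorganic pyrophosphatase), Slc35c1, Mtmr9, Tpm4, Specc1, Mcmbp (an MCM-binding protein), Sh3rf1, Cpsf2, Pwp2 and Mettl1, with correlations of 0.9987 to 0.9997 over 4 arrays. With 4 arrays such values are common: 612 genes reached 0.95. Ppa1 read 3668 in IL-17A skin with IMQ, 2651 in GFP skin with IMQ, 3998 in IL-17A skin and 2748 in GFP skin. That both IL-17A pools lay above both GFP pools follows from the choice by correlation. The members' mean level was itself higher on both IL-17A arrays.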
